A study of Mus musculus with 10 samples.

Results

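Alveolar fluid transport was followed through 9 genes: Scnn1a, Scnn1b and Scnn1g, which encode the subunits of the epithelial sodium channel ENaC, the chloride channel gene Cftr, the sodium pump subunit gene Atp1b1, the ubiquitin ligase gene Nedd4l and the water channel genes Aqp1, Aqp4 and Aqp5. A probe set was taken as a member when the array's annotation gave it exactly 1 symbol and that symbol was one of these. All 9 genes were found, with 16 probe sets among the 22626 on the array, and each was represented by the probe set with the highest mean over the arrays, as were the 12393 genes of the whole array. Every member entered the comparison, since no filter on low values was set.

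The lungs came from male C57BL/6 mice of 6 to 8 weeks. Whole lung of 5 mice after intermittent hypoxia, in which inspired oxygen falls and recovers repeatedly, was compared with whole lung of 5 mice kept in normoxia, with 1 Affymetrix Mouse Genome 430A 2.0 array per animal. Neither the oxygen levels nor the days of exposure are given in the sources used here, and the labels name no genotype or drug. Defining lung markers were bright, with mean log2 levels in intermittent hypoxia and normoxia of 13.09 and 12.90 for Ager of type 1 cells and 14.59 and 14.60 for Sftpc of type 2 cells. Levels are the authors' log2 probe set values, so a difference of 1 is a doubling, and differences are intermittent hypoxia minus normoxia.

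The air spaces of the lung stay nearly dry because their epithelium moves sodium out of the fluid and water follows. Sodium enters the cells through ENaC at the apical surface and is pumped out at the basolateral side by the Na,K-ATPase, a pump of a catalytic alpha subunit and a beta subunit. Chloride moves through CFTR among other routes, and aquaporins make membranes permeable to water. NEDD4-2, the product of Nedd4l, tags ENaC for removal from the surface, and the serum and glucocorticoid-regulated kinase SGK1 restrains that ligase.

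The data showed a rise of the type 1 cell aquaporin gene Aqp5 and of the ENaC gamma subunit gene Scnn1g after intermittent hypoxia, by 1.44-fold and 1.23-fold. The other 7 genes did not pass the test. At an adjusted p below 0.05 (limma, Benjamini-Hochberg over all probe sets), 2 of 9 genes were higher, against 8.93% of all genes, and 0 were lower, against 3.6%. In either direction this was 2 of 9, against 12.5%. Of their 16 probe sets 2 were higher, against 8.5% of all probe sets, and 0 lower, against 3.43%, so 2 changed, against 11.9%. At an unadjusted limma p below 0.05, 3 of 9 were higher, against 19.9% of all genes, and 1 was lower, against 12.7%. SAM, the method that the design text names, called 2 of 9 higher, against 13% of all genes, and 1 lower, against 6.92%. The median difference of the 9 genes was 0.21, against 0.01 over all genes, and 6 of 9 were positive, against 6593 of all 12393. Among the 3098 genes of highest mean level, which held 7 of the 9, the median was 0.14. The groups did not overlap in 3 genes, Aqp5 and Scnn1g, which were higher, against 5.76% of all genes, and Aqp4, which was lower, against 2.85%. As whole lung was measured, fewer cells of a type and less RNA per cell cannot be told apart.

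Facts of the arrays bear on these values. Array medians lay between 7.69 and 7.73, but values spread less on 3 of them: their standard deviation over probe sets was 1.89 to 1.93 on normoxia arrays 2 to 4, while 7 arrays had 1.99 to 2.05. The median difference followed the level. With genes split into 4 equal bins by mean level, it was -0.06 in the lowest bin and 0.14 in the highest. The highest bin held 3098 genes, with 18.0% of them higher and 2.19% lower by the test. The fluid transport genes lay there too, 7 of 9, all but Cftr and Aqp4. Quantile normalization, which gives every array the same distribution, gave the highest bin a median of -0.00, and 59.1% of changed probe sets were then higher, against 71.2% with the deposited values. Without normoxia arrays 2 to 4 together, 16 probe sets of the whole array passed, against 2699 with all arrays.

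**Figure D1:**
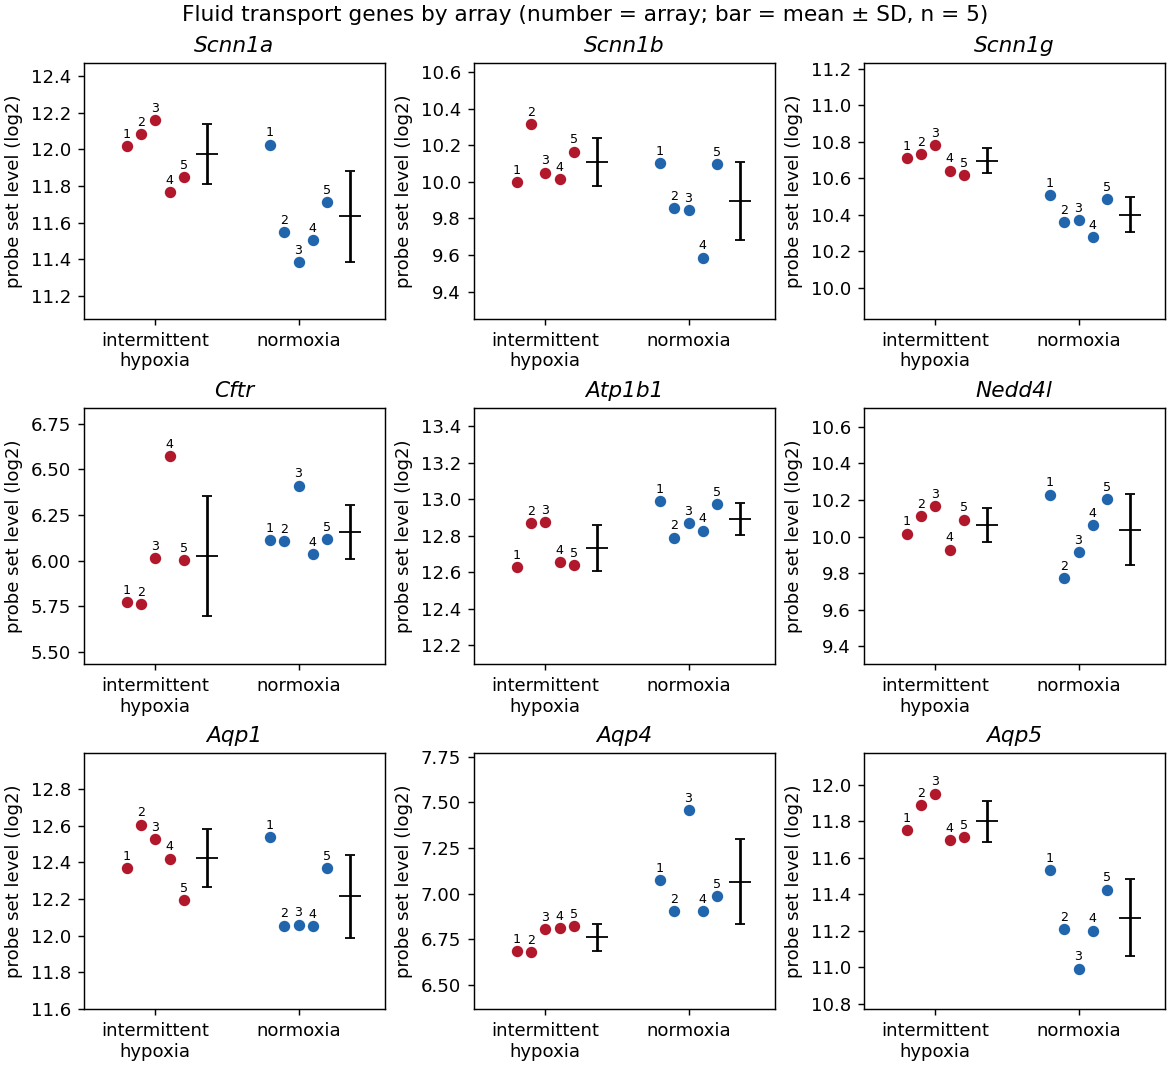
Log2 level (vertical axis) of each of the 9 genes on the 5 intermittent hypoxia arrays (red, left) and the 5 normoxia arrays (blue, right) of each panel, with array numbers and mean ± SD bars. Every panel spans the same height. Aqp5 and Scnn1g are higher on all hypoxia arrays than on any normoxia array, and Aqp4 is lower on all of them.

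Aqp5 encodes the water channel of the apical membrane of type 1 cells, which also serves salivary and other glands. It lies between Aqp2 and Aqp6 on chromosome 15 (GRCm38.p6) and had 1 probe set, 1418818_at. Its log2 level was 11.75, 11.89, 11.95, 11.70 and 11.71 on intermittent hypoxia arrays 1 to 5, against 11.53, 11.21, 10.99, 11.20 and 11.43 on normoxia arrays 1 to 5. Every hypoxia array lay above every normoxia array, and the nearest pair were hypoxia array 4 and normoxia array 1. The means were 11.80 ± 0.11 in intermittent hypoxia and 11.27 ± 0.21 in normoxia (SD, n = 5 each), a difference of 0.53 (SE 0.10, 95% interval 0.32 to 0.74, limma adjusted p = 0.00915). This was a rise of 1.44-fold, with an interval of 1.24 to 1.67. The call held without any single array, with adjusted p values up to 0.0300, and with quantile normalization, where the difference was 0.38 (adjusted p = 0.00664). It was lost without normoxia arrays 2 to 4 together, with a difference of 0.32 (SE 0.09, adjusted p = 0.242).

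Scnn1g encodes the gamma subunit of ENaC, which with the beta subunit brings the channel to full activity, and had 1 probe set, 1419079_at. Its log2 level was 10.71, 10.73, 10.78, 10.64 and 10.62 on intermittent hypoxia arrays 1 to 5, against 10.51, 10.36, 10.37, 10.28 and 10.49 on normoxia arrays 1 to 5. The groups did not overlap, and the hypoxia values lay closer together. The means were 10.70 ± 0.07 in intermittent hypoxia and 10.40 ± 0.10 in normoxia (SD, n = 5 each), a difference of 0.30 (SE 0.06, 95% interval 0.16 to 0.44, limma adjusted p = 0.0156). This was a rise of 1.23-fold, with an interval of 1.11 to 1.35. Without any single array the call held, with adjusted p values up to 0.0464. It was lost with quantile normalization, where the difference was 0.13 (SE 0.05, adjusted p = 0.103), and without normoxia arrays 2 to 4 together, at 0.20 (SE 0.08, adjusted p = 0.403).

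The 250 bases before the start of these 2 genes are printed because both rose. They are from RefSeq (GRCm38.p6, plus strand), at chr15:99590778-99591027 for Aqp5 and chr7:121734229-121734478 for Scnn1g. Capitals mark matches on either strand to the E-box CACGTG, which clock factors bind, to ACGTG, the core of the hypoxia-inducible factor site, and to AGAACA, the half-site of the glucocorticoid receptor.
Aqp5: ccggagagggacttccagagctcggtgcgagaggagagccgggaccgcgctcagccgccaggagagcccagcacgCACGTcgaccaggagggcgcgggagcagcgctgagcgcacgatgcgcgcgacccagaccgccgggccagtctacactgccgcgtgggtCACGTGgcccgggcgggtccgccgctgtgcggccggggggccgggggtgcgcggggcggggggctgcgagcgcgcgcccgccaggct
Scnn1g: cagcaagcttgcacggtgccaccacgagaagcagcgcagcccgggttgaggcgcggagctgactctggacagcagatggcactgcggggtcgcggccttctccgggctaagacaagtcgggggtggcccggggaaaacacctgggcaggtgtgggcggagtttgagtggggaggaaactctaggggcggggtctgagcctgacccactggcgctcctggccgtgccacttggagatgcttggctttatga
The Aqp5 window held 1 E-box. It also held 3 matches to ACGTG, counting both strands, of which the palindromic E-box supplies the overlapping pair. The half-site was not matched there, and the Scnn1g window held no match to any of the motifs. Over 32851 promoter windows of the same length, 6.02% held the E-box, 16.6% held ACGTG and 16.1% held the half-site. A match of letters is a description of the window and shows no binding. RefSeq windows were also found for Aqp1, Atp1b1, Cftr and Scnn1b.

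Scnn1a encodes the alpha subunit, without which ENaC does not conduct and newborn mice cannot clear lung fluid (probe set 1425088_at). Its log2 level was 12.02, 12.08, 12.16, 11.77 and 11.85 on intermittent hypoxia arrays 1 to 5, against 12.03, 11.55, 11.38, 11.50 and 11.71 on normoxia arrays 1 to 5. The groups overlapped through normoxia array 1, which lay above 3 hypoxia arrays. The means were 11.98 ± 0.16 in intermittent hypoxia and 11.63 ± 0.25 in normoxia (SD, n = 5 each), and the difference of 0.34 (SE 0.12, 95% interval 0.09 to 0.59) did not pass, at a limma adjusted p of 0.0695. Without normoxia array 1 it passed, at 0.44 (SE 0.10, adjusted p = 0.0140), and it also passed when the dimmer probe sets, those under the median level, were left out of the test (adjusted p = 0.0487). It was smaller with quantile normalization, at 0.18 (adjusted p = 0.188), and without normoxia arrays 2 to 4 together, at 0.11 (adjusted p = 0.854).

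Scnn1b encodes the beta subunit and lies next to Scnn1g on chromosome 7, as neighbouring coding genes (probe set 1418475_at). Its log2 level was 9.998, 10.31, 10.05, 10.01 and 10.17 on intermittent hypoxia arrays 1 to 5, against 10.10, 9.86, 9.85, 9.59 and 10.10 on normoxia arrays 1 to 5. Normoxia arrays 1 and 5 lay within the hypoxia range and the other 3 below it. The difference was 0.21 (SE 0.10, 95% interval -0.01 to 0.43, limma adjusted p = 0.172). It was 0.13 without normoxia array 4, 0.07 with quantile normalization and 0.01 without normoxia arrays 2 to 4 together. With the deposited values the differences of the 3 ENaC subunits ran from 0.21 to 0.34, and whether they differed from one another was not tested.

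Nedd4l encodes the ligase that removes ENaC from the cell surface. Its brighter probe set, 1423269_a_at, had log2 levels of 10.02, 10.11, 10.17, 9.93 and 10.09 on intermittent hypoxia arrays 1 to 5, against 10.23, 9.77, 9.92, 10.06 and 10.21 on normoxia arrays 1 to 5. All hypoxia values lay inside the normoxia range. The difference was 0.03 (SE 0.09, 95% interval -0.17 to 0.22, limma adjusted p = 0.869), and it was -0.12 with quantile normalization, so no direction was held. The dimmer probe set, 1423270_at, averaged 6.11 ± 0.08 in intermittent hypoxia and 6.41 ± 0.26 in normoxia (SD, n = 5 each), a difference of -0.30 (SE 0.11) that did not pass (limma adjusted p = 0.0839).

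Atp1b1 encodes the beta-1 subunit, which carries the catalytic subunit of the sodium pump to the membrane. Its brightest probe set, 1423890_x_at, of a design whose probes can also bind other transcripts, had log2 levels of 12.63, 12.87, 12.88, 12.65 and 12.64 on intermittent hypoxia arrays 1 to 5, against 12.99, 12.79, 12.87, 12.83 and 12.97 on normoxia arrays 1 to 5. Hypoxia arrays 1, 4 and 5 lay below all normoxia arrays and hypoxia arrays 2 and 3 among them. The difference was -0.16 (SE 0.07, 95% interval -0.32 to 0.00, limma adjusted p = 0.166). All 5 probe sets of the gene had a negative difference, from -0.30 to -0.10, and none passed. The call changed with the scaling of the arrays. With quantile normalization 4 of the 5 probe sets passed as lower, with differences of -0.28, -0.43, -0.29 and -0.45 and adjusted p values from 0.0262 to 0.0472, and the fifth, the dimmest, had -0.09.

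**Figure D2:**
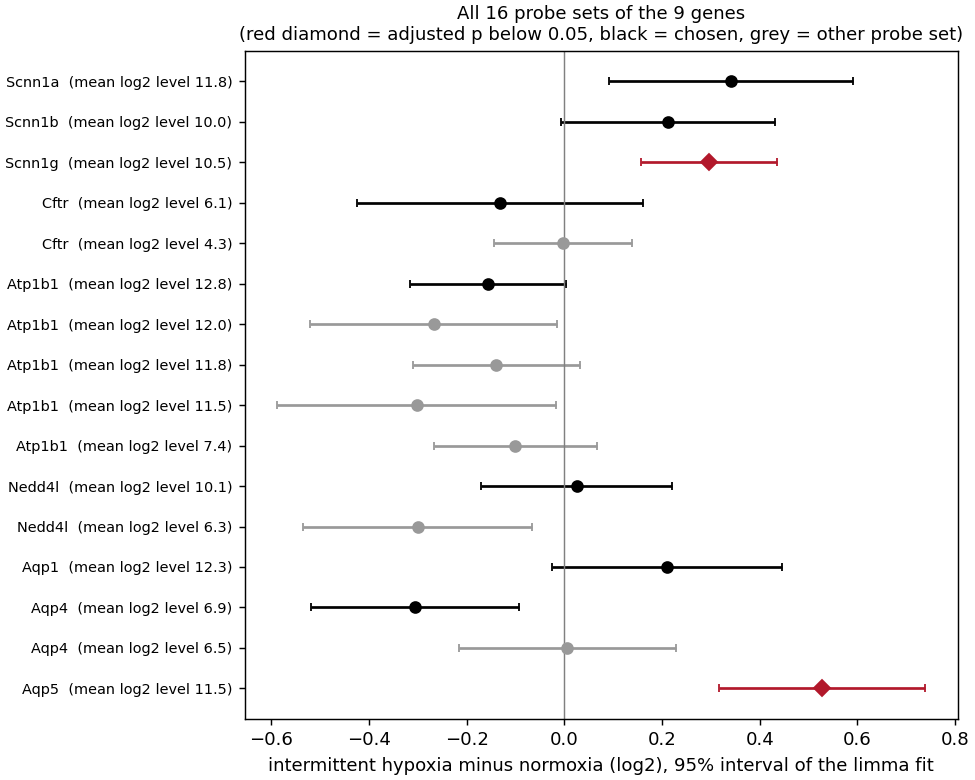
Difference in log2 level, intermittent hypoxia minus normoxia (horizontal axis), for all 16 probe sets, with 95% intervals of the limma fit. Red diamonds, Aqp5 at 0.53 and Scnn1g at 0.30, passed, black points are the other chosen probe sets, and grey points are further probe sets of the same genes. All 5 probe sets of Atp1b1 lie left of zero.

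Aqp1 encodes the water channel of capillary endothelium, which red cells also carry (probe set 1416203_at). Its log2 level was 12.37, 12.61, 12.53, 12.42 and 12.20 on intermittent hypoxia arrays 1 to 5, against 12.54, 12.05, 12.06, 12.05 and 12.37 on normoxia arrays 1 to 5. Normoxia arrays 2 to 4 lay below every hypoxia array, while arrays 1 and 5 lay among them. The difference was 0.21 (SE 0.11, 95% interval -0.03 to 0.45, limma adjusted p = 0.206). It was 0.06 with quantile normalization, and without normoxia arrays 2 to 4 it was -0.03. Of 12 endothelial markers 4 were higher and 1 lower at an unadjusted limma p below 0.05, and 1 and 1 by SAM. Their median difference was 0.15, against 0.14 for all genes in the highest bin of level. By the adjusted test 1 was higher, against 8.93% of all genes, and 1 lower, against 3.6%. Emcn, an endothelial sialomucin gene, was the higher one, by 1.03 (SE 0.08), and Ramp2, a receptor partner gene, the lower one (-0.30, SE 0.07), a call that ended when normoxia array 2 or hypoxia array 1 or 4 was left out (largest adjusted p 0.0561). The summed linear level of the endothelial list was 31280 to 37734 in intermittent hypoxia and 29488 to 38206 in normoxia. All 7 measured red cell markers had a negative difference, as had 5800 of all 12393 genes. The globin gene Hba-a1 among them was dim, with a mean log2 level of 5.25 and a difference of -0.06. By the test 0 were higher, against 8.93% of all genes, and 1 lower, against 3.6%. The counts were 0 and 4 at an unadjusted limma p below 0.05 and 0 and 1 by SAM. The gene lower by the test was the anion exchanger gene Slc4a1 (-1.03, SE 0.15). The summed level of the red cell list was 3894 to 4670 in intermittent hypoxia and 4558 to 9300 in normoxia, with medians of 4588 and 4926. Normoxia array 5 stood apart in this list, with the haem synthesis gene Alas2 at 12.07 there, against 10.74, 10.86, 10.59 and 10.85 on normoxia arrays 1 to 4. The part of either cell type in the Aqp1 value was not tested.

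Aqp4 encodes the water channel of the basolateral membrane of airway epithelium, best known from astrocytes and also present in fast skeletal muscle. Its brighter probe set, 1434449_at, had log2 levels of 6.69, 6.68, 6.81, 6.81 and 6.82 on intermittent hypoxia arrays 1 to 5, against 7.07, 6.90, 7.46, 6.91 and 6.99 on normoxia arrays 1 to 5. Every hypoxia array lay below every normoxia array, and normoxia array 3 stood highest. The difference of -0.31 (SE 0.10, 95% interval -0.52 to -0.09) did not pass, at a limma adjusted p of 0.0595. It passed without normoxia array 5 (-0.33, adjusted p = 0.0473) and with SAM (adjusted p = 0.0442). The other probe set, 1425382_a_at, averaged 6.47 ± 0.18 in intermittent hypoxia and 6.46 ± 0.18 in normoxia (SD, n = 5 each), a difference of 0.01 (SE 0.10). Of 14 muscle markers 0 were higher and 2 lower at an unadjusted limma p below 0.05, and 0 and 2 by SAM. By the adjusted test 0 were higher, against 8.93% of all genes, and 2 lower, against 3.6%. The lower ones were the calcium release genes Casq1 (-1.25, SE 0.35) and Trdn (-1.18, SE 0.31). The summed level of the list was 13092 to 21170 in intermittent hypoxia and 17862 to 31530 in normoxia, with medians of 20088 and 20243. Normoxia array 2 stood apart in this list: the skeletal actin gene Acta1, named after its values were seen, was at 13.12 there and at most 6.99 on the other 9 arrays. Aqp4 itself was lowest of the normoxia arrays on that array, and without it the Aqp4 difference was -0.35 (adjusted p = 0.0657). The fall of Casq1 and Trdn was about as large without any single array, at -1.50 to -1.04 and -1.49 to -0.92, but leaving out one of normoxia arrays 2, 3 or 4 or of hypoxia arrays 1, 2, 3 or 4 ended both calls (largest adjusted p 0.0949). Without normoxia arrays 2 to 4 together the differences were -0.26 and -0.40. The part of muscle RNA in the Aqp4 value was not tested.

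Cftr encodes the chloride channel that is defective in cystic fibrosis. Its brighter probe set, 1420579_s_at, of a design that several transcripts can share, had log2 levels of 5.77, 5.76, 6.01, 6.57 and 6.00 on intermittent hypoxia arrays 1 to 5, against 6.11, 6.11, 6.41, 6.03 and 6.12 on normoxia arrays 1 to 5. Hypoxia arrays 1, 2, 3 and 5 lay below every normoxia array, and hypoxia array 4 lay above all of them. The difference was -0.13 (SE 0.14, 95% interval -0.43 to 0.16, limma adjusted p = 0.530). Without hypoxia array 4 it was -0.27 (SE 0.09, adjusted p = 0.0869), and without normoxia array 3 or hypoxia array 1 or 2 it was -0.07 in each case. It did not pass without any single array. The other probe set, 1427767_a_at, stayed between 4.19 and 4.46 on the hypoxia arrays and between 4.22 and 4.33 on the normoxia arrays. Its mean lay at the 0.42 percentile of all probe sets and that of the brighter one at the 22.3 percentile, near the floor of the array, where a change is hard to measure.

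Most members shared a pattern of levels within normoxia. Normoxia arrays 2, 3 and 4 all lay below arrays 1 and 5 in 7 of the 9 genes, all but Aqp4 and Cftr. The same held for 29.1% of all genes and for 60.8% of genes in the highest bin of level, to which these 7 belong. The mean levels of the type 1, type 2, club and endothelial marker lists shared it, and those of the macrophage, ciliated, red cell and muscle lists did not. Centred on each gene's mean, the type 1 list averaged -0.08, -0.30 and -0.16 on normoxia arrays 2, 3 and 4, against 0.08 and 0.05 on arrays 1 and 5. The endothelial list averaged -0.16, -0.30 and -0.17, against 0.04 and 0.15. The macrophage list averaged -0.17, -0.22 and -0.22, against -0.11 and -0.18.

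**Figure D3:**
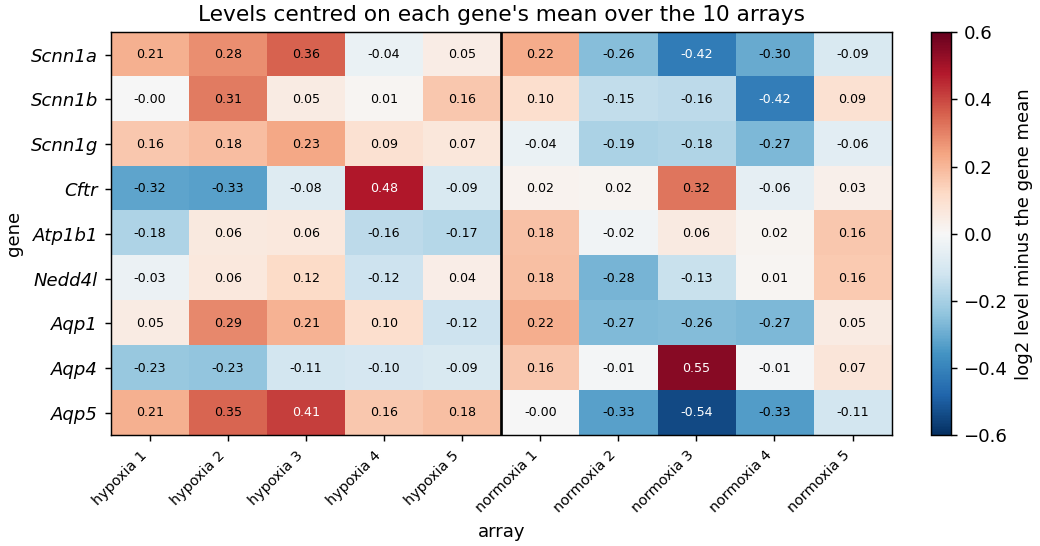
Log2 level minus the gene's mean over the 10 arrays (colour and printed value) for the 9 genes (rows) on the intermittent hypoxia arrays (left of the line) and normoxia arrays (right). Normoxia arrays 2 to 4 are low for the ENaC genes, Aqp1 and Aqp5, with values down to -0.54 for Aqp5 on array 3, where Aqp4 reaches 0.55.

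Likeness of pattern was measured as the root mean square difference of centred log2 values over the 10 arrays, where 0 means the same profile. Among the members the closest pair were Aqp5 and Scnn1a (0.117), followed by Aqp1 and Scnn1a (0.120), and the most distant were Aqp4 and Aqp5 (0.490). Over all genes those nearest to Aqp5 were Acot9, an acyl-CoA thioesterase gene (0.0471), the epithelial proteoglycan gene Sdc1 (0.0529) and the cyclophilin gene Ppic (0.0616), against a median distance of 0.312. Nearest to Scnn1g were Pip4p2, a phosphoinositide phosphatase gene (0.0353), the RNA helicase gene Dhx15 (0.0441) and Msn, which encodes the membrane linker moesin (0.0458), against a median of 0.196. Atp1b1, Cftr and Aqp4 lay farther than these medians, both from Aqp5 (0.357, 0.460 and 0.490) and from Scnn1g (0.234, 0.334 and 0.345). The other members lay nearer than the medians.

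Aqp5 and ENaC are products of the alveolar epithelium, so markers of its cells stand beside them. Of all genes 8.93% were higher and 3.6% lower by the test. These shares were 19.9% and 12.7% at an unadjusted limma p below 0.05, and 13% and 6.92% by SAM. Of 7 measured type 1 cell markers 1 was higher and 0 were lower, with 3 and 0 at an unadjusted limma p below 0.05 and 2 and 0 by SAM. Their median difference was 0.18, against 0.14 for all genes in the highest bin of level. Emp2, a membrane protein gene of type 1 cells, rose by 0.53 (SE 0.13, limma adjusted p = 0.0211), a call that ended when normoxia array 4 or one of hypoxia arrays 1, 2 or 3 was left out (largest adjusted p 0.0598). Ager, which defines these cells, differed by 0.18 (SE 0.08, adjusted p = 0.127). The summed linear level of the list was 44370 to 53344 in intermittent hypoxia and 39066 to 48340 in normoxia. Of 10 type 2 cell markers 1 was higher and 0 lower (3 and 0 at an unadjusted p, 1 and 0 by SAM), the FGF-responsive factor gene Etv5 (0.63, SE 0.18), with a list median of 0.08 and a summed level of 87638 to 105891 in intermittent hypoxia and 88312 to 105125 in normoxia. Among 8 club cell markers 0 passed (0 at an unadjusted limma p below 0.05 and 0 by SAM), and of 6 ciliated cell markers 1 was higher, the microtubule gene Tppp3 (0.33, SE 0.09), with list medians of -0.07 and -0.12. The calls of Etv5 and Tppp3 ended when one of normoxia arrays 2, 3 or 4 or of hypoxia arrays 1, 2, 3 or 4 was left out (largest adjusted p 0.103), and that of Tppp3 also with quantile normalization (adjusted p = 0.0848). Of 9 macrophage markers 3 were higher and 0 lower (7 and 1 at an unadjusted p, 5 and 0 by SAM), with a list median of 0.36. They were Cd68 (0.74, SE 0.13), Itgax (0.66, SE 0.13) and the mannose receptor gene Mrc1 (0.41, SE 0.10), the last lost when normoxia array 3 or hypoxia array 2, 3 or 4 was left out (largest adjusted p 0.0624). Cd68 and Itgax held without any single array, but each lost its call under 1 alternative (largest adjusted p 0.251 and 0.312). The macrophage list had a summed level of 8134 to 13042 in intermittent hypoxia and 7732 to 9031 in normoxia. Array values of this kind have no zero, so no marker is listed at 0. The part of these cell types in the rise of Aqp5 and Scnn1g was not tested.

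Other genes of the pathway were taken from 7 lists. Beside their counts stand the shares of all genes, 8.93% higher and 3.6% lower by the test. These shares were 19.9% and 12.7% at an unadjusted limma p below 0.05, and 13% and 6.92% by SAM. All 11 of their genes whose brightest probe set passed with every array, named here with their values, missed the threshold without normoxia arrays 2 to 4 together. That setting leaves 2 normoxia arrays, and 16 probe sets of the whole array passed in it, against 2699 with all arrays. The loss is therefore not particular to these genes. Where a call below ended on leaving out 1 array, the difference kept its sign. Of 8 measured subunits and FXYD regulators of the sodium pump, 2 were higher and 0 lower (3 and 0 at an unadjusted limma p below 0.05, 2 and 0 by SAM). The beta-3 subunit gene Atp1b3 averaged 11.67 ± 0.13 in intermittent hypoxia and 11.19 ± 0.20 in normoxia (SD, n = 5 each), a rise of 0.48 (SE 0.10, limma adjusted p = 0.0119). Fxyd5, a pump regulator that also weakens cell adhesion, rose by 0.33 (SE 0.07, adjusted p = 0.0132). The groups did not overlap in either gene, and no single array decided either call. Without normoxia arrays 2 to 4 their differences were 0.27 (adjusted p = 0.359) and 0.23 (adjusted p = 0.371). A dimmer probe set of Atp1b2, a pump subunit gene, passed as lower (-0.29, SE 0.08, limma adjusted p = 0.0379), while its brightest one did not pass.

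Proteases that cleave and open ENaC, and their inhibitors, had 2 genes higher and 0 lower of 10 (3 and 0 at an unadjusted limma p below 0.05, 2 and 0 by SAM). The membrane serine protease gene Tmprss2 rose by 0.37 (SE 0.09, limma adjusted p = 0.0194), and a second probe set of it rose by 0.63 (SE 0.12). Spint1, which encodes an inhibitor of such proteases, rose by 0.33 (SE 0.08, adjusted p = 0.0205). Each lost its call without normoxia array 3 or 4, with adjusted p values up to 0.0560 for Tmprss2 and 0.0587 for Spint1. The median difference of the list was 0.12.

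Genes that set the amount of ENaC at the surface passed in both directions. Of 20 ubiquitin ligase, kinase and trafficking genes 1 was higher, against 8.93% of all genes, and 2 were lower, against 3.6%. The counts were 2 and 3 at an unadjusted limma p below 0.05 and 1 and 2 by SAM, and the list median was 0.11. Tsc22d3, a glucocorticoid-induced gene whose product GILZ raises surface ENaC in kidney cells, averaged 11.27 ± 0.41 in intermittent hypoxia and 12.07 ± 0.12 in normoxia (SD, n = 5 each), a difference of -0.80 (SE 0.16, limma adjusted p = 0.0109) that no single array decided. Usp2, a deubiquitinase gene, differed by -0.40 (SE 0.12, adjusted p = 0.0423) a call that ended when one of normoxia arrays 2, 3 or 4 or of hypoxia arrays 1, 4 or 5 was left out (largest adjusted p 0.107). Wwp1, a ligase of the NEDD4 family, differed by 0.30 (SE 0.09, adjusted p = 0.0447) a call that ended when one of normoxia arrays 2, 3 or 4 or of hypoxia arrays 1, 2, 3 or 4 was left out (largest adjusted p 0.116) and with quantile normalization (0.14, adjusted p = 0.158). Its other 2 probe sets passed as higher, by 0.36 and 0.48. Sgk1, the kinase gene upstream of Nedd4l, named here after its value was seen, differed by -0.08 (SE 0.11, adjusted p = 0.669). Dimmer probe sets of Ndfip1 (0.28, SE 0.07, limma adjusted p = 0.0321) and Wwp2 (0.29, SE 0.08, adjusted p = 0.0369) passed as higher, while the brightest ones did not pass.

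Of 16 genes of corticosteroid and beta-adrenergic control, both of which stimulate fluid clearance, 1 was higher and 2 were lower (5 and 2 at an unadjusted limma p below 0.05, 3 and 2 by SAM), with a median of 0.04. Fkbp5, a glucocorticoid-induced chaperone of the steroid receptors, had a difference of -1.12 (SE 0.14, limma adjusted p = 0.00174), with no overlap between the groups. Prkar1a, a regulatory subunit gene of protein kinase A, rose by 0.34 (SE 0.08, adjusted p = 0.0224), a call that ended when one of normoxia arrays 2, 3 or 4 or of hypoxia arrays 1 or 2 was left out (largest adjusted p 0.0641). Vipr1, a receptor gene for vasoactive intestinal peptide, differed by -0.30 (SE 0.08, adjusted p = 0.0407) at a level near the floor, a call that ended when any array but normoxia array 1 or 5 was left out (largest adjusted p 0.103). The glucocorticoid receptor gene Nr3c1, named after its value was seen, differed by 0.29 (SE 0.09, adjusted p = 0.0517), while 1 of its 2 other probe sets passed as higher (0.72, SE 0.18).

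Of 20 chloride, bicarbonate and cotransport genes 0 were higher and 1 was lower (1 and 2 at an unadjusted limma p below 0.05, 1 and 1 by SAM), with a median of -0.03. The lower one, the sodium bicarbonate cotransporter gene Slc4a4, differed by -0.32 (SE 0.09, limma adjusted p = 0.0410), and 1 of its other 3 probe sets also passed as lower (-0.42, SE 0.07). The first call ended when one of normoxia arrays 2, 3 or 4 or of hypoxia arrays 1, 2, 3 or 4 was left out (largest adjusted p 0.107). Dimmer probe sets passed in genes whose brightest one did not. They were lower for Slc12a2 (-0.44, SE 0.12, limma adjusted p = 0.0288) and higher for Slc9a3r2 (0.62, SE 0.15, adjusted p = 0.0235, and 0.27, SE 0.07, adjusted p = 0.0351). All 8 other aquaporins and ENaC relatives had a negative difference, from -0.23 to -0.02, and 0 passed (0 higher and 1 lower at an unadjusted p, 0 by SAM). Their median was -0.06, and that of all genes in the lowest bin of level was -0.06 too. The list was dim, with a summed linear level of 717 to 798 in intermittent hypoxia and 740 to 881 in normoxia for the 8 genes. The smallest p among them was that of Aqp7, the glycerol channel gene of fat, at -0.23 (SE 0.09, adjusted p = 0.109), which passed without normoxia array 5 (-0.29, adjusted p = 0.0307). Of 9 airspace junction genes 0 passed (1 higher and 1 lower at an unadjusted p, 1 and 1 by SAM), with Cldn7, a claudin gene, at 0.32 (SE 0.10, adjusted p = 0.0559), which passed without normoxia array 5 (0.41, adjusted p = 0.00765). A dimmer probe set of Cldn18, another claudin gene, passed as higher (0.82, SE 0.22, limma adjusted p = 0.0341), while its brightest one did not pass.

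**Figure D4:**
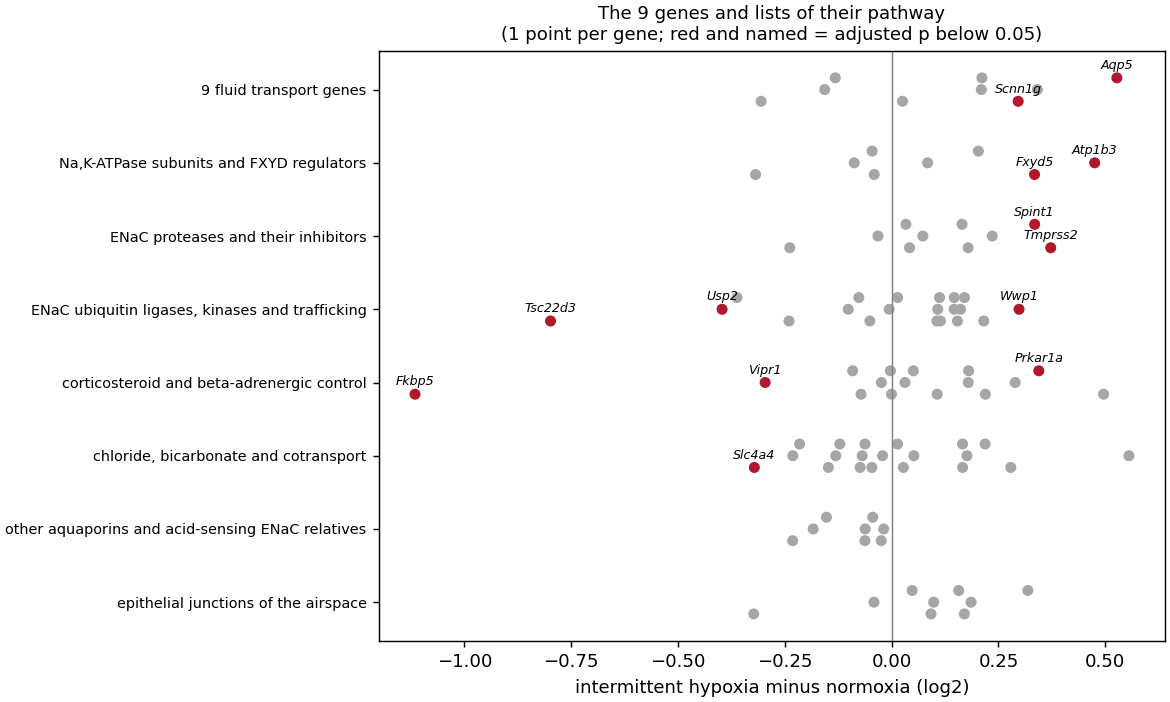
Difference in log2 level, intermittent hypoxia minus normoxia (horizontal axis), for the 9 genes (top row) and each measured gene of 7 pathway lists (other rows), 1 point per gene. Red points with names passed the limma test, from Fkbp5 at -1.12 to Aqp5 at 0.53, and grey points did not.

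**Figure D5:**
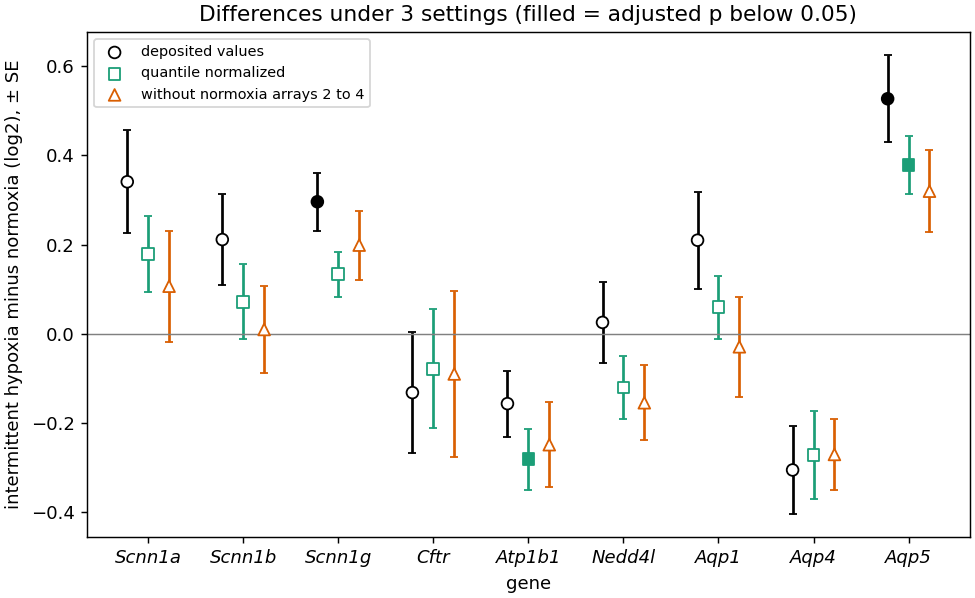
Difference in log2 level, intermittent hypoxia minus normoxia, ± SE (vertical axis) for the 9 genes (horizontal axis) with the deposited values, after quantile normalization and without normoxia arrays 2 to 4, which leaves 2 normoxia arrays. Filled symbols passed. Aqp5 passes in the first 2 settings, Scnn1g in the first, Atp1b1 in the second, and no gene in the last.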

How the data were processed

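Total RNA of whole lung was measured on 10 arrays, 5 in each group, and each is a separate animal per the series' design text. The deposited values are log2 probe set levels made by the authors, with RMA and affy as the tools, per the submitters' processing notes. The sources used here give neither their versions nor how the arrays were normalized, and the small number of arrays limits the precision.

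All 22626 probe sets were compared with limma 3.58.1 (lmFit, eBayes) in R 4.3.3. Tests were two-sided, p values were adjusted over the whole array by the Benjamini-Hochberg method, and the threshold was 0.05. The platform annotation gave 1 symbol for 20380 probe sets, several for 691 and none for 1555, and only the first were named. SAM used 100 permutations, and its q-value stands as its adjusted p. Members, lists, motifs and the rule for named genes (passing genes of each pathway list, up to 4, or otherwise the one with the smallest p, and the 3 nearest patterns to the 2 members with the smallest p, and up to 3 changed or abundant genes of each marker list) were chosen with earlier results of these data known. The scripts were tested on simulated data. Alternatives were SAM, a replicate block, quantile normalization, median centring, a level filter, eBayes with trend and robust options, arrayWeights, averaging the probe sets of each gene and dropping each array in turn. Leaving out normoxia arrays 2 to 4 was added after the data were seen.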

Additional observations from a re-analysis of the deposited data

Results flagged for a closer look

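On normoxia array 3 the brighter Cftr probe set had a log2 level of 6.41, apart from the other normoxia arrays at 6.03 to 6.12. The gap to the nearest array was 0.775 of the group's range, above the critical value of 0.71 for 5 samples. The macrophage marker Itgax stood apart the other way on hypoxia array 5, with a log2 level of 8.73 below the other hypoxia arrays and a gap of 0.778 of the range. Acta1, a muscle gene, had a log2 level of 13.12 on normoxia array 2, with a gap of 0.824 of the range, and 6.01 on hypoxia array 3, below the other hypoxia arrays, with a gap of 0.906. These were 4 of 102 groups checked. Acta1 had been named after its values were seen, so the count cannot be set against a chance rate of about 1 in 20.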

How the results depend on the processing

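Aqp5 passed as higher under 18 of its 19 alternatives and Scnn1g under 17 of 19, with the exceptions given above. The count of changed fluid transport genes was 2 or 3 under every alternative except the one without normoxia arrays 2 to 4 together, where it was 0. SAM gave 1 lower gene (Aqp4), and quantile normalization gave 1 higher (Aqp5) and 1 lower (Atp1b1). Of all their probe sets 5 passed with quantile normalization and 0 without normoxia arrays 2 to 4. Leaving out single arrays gave 2 to 3 genes (2 to 3 higher, 0 to 1 lower) and 2 to 4 probe sets. Over the whole array the count of 2699 became 4306 with SAM, 4132 with arrayWeights, 1755 with the replicate block and 16 without normoxia arrays 2 to 4, and single arrays moved it from 1003 without normoxia array 4 to 4800 without normoxia array 5, with 1714 at most without any one of normoxia arrays 2 to 4 or hypoxia arrays 1 to 4. The replicate block left 2 fluid transport genes higher, and arrays of the same number did not deviate together (correlations from -0.24 to 0.22 over the 5 pairs). The sign turned for Nedd4l at -0.12 with quantile normalization, -0.15 without normoxia arrays 2 to 4 and -0.14 with the mean of its probe sets, and without single arrays its difference ran from -0.0405 to 0.0734. It turned for Aqp1 at -0.0292 without normoxia arrays 2 to 4. Sftpc, at -0.01 with all arrays, was at 0.0105 with quantile normalization, 0.0162 with the mean of its probe sets and -0.0410 to 0.0199 without single arrays. Acta1, at -1.26 with all arrays and not passing, was at -1.79 to 0.0701 without single arrays, positive without normoxia array 2. The cause was not tested. Low signal limits what Cftr and Aqp4 can show.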
